A study of Mus musculus with 9 samples.

Results

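Transcripts of 10 guidance ligands and receptors were followed in sorted lung fibroblasts of aged mice: the Slit ligands Slit2 and Slit3, their receptors Robo1 and Robo2, the semaphorins Sema3a, Sema3c, and Sema5a, the netrin Ntn1, and the neuropilins Nrp1 and Nrp2. They were chosen by gene symbol, with earlier results of these data known. Each of the 10 matched 1 row of the 43346 rows in the deposited gene table. The mice were male, carried the Col1a1-GFP transgene on an FVB background, and were 18 months old (72 weeks in the sample labels). Aged sham mice (4 libraries) received 1 dose of saline into the trachea, and aged bleo mice (5 libraries) received 1 dose of bleomycin, a drug that injures the lung and leads to fibrosis. Lungs were taken 30 days later, and cells were sorted as GFP+, CD45-, CD31-, and EpCAM-, which selects cells with an active collagen I promoter and sets aside blood, endothelial, and epithelial cells. Because the gate rests on the Col1a1 promoter, cells that turned this promoter on after injury can enter it, and the sorted population need not hold the same cell types in both groups. Libraries were made from polyadenylated RNA, and the comparison asks which guidance genes fibroblasts of an aged lung transcribe at other levels 30 days after injury.

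Guidance cues were first described in the growing nervous system, where they attract or repel axons. Slit proteins are secreted ligands that bind Robo receptors, mostly as repellents, and Robo receptors act on the cytoskeleton through Slit-Robo GTPase-activating proteins. Class 3 semaphorins are secreted and signal through a receptor complex in which a neuropilin binds the ligand and a plexin carries the signal inward. Netrin-1 is a secreted, laminin-related protein that binds DCC, neogenin, and the UNC5 receptors. The same molecules are made outside the nervous system, where they take part in cell migration, vessel growth, and branching of the lung epithelium, and neuropilins also serve as co-receptors of vascular endothelial growth factors.

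Slit2 and Slit3 share a regulatory RNA: each carries in an intron a hairpin of the same microRNA, miR-218, which is therefore shown first. Mir218-1 lies within Slit2 at chr5:48223942-48224051 and Mir218-2 within Slit3 at chr11:35616816-35616925, both on the plus strand like their hosts and outside the exons of the coding transcripts (GRCm38). Both give the same mature sequence, printed from RefSeq with its seed, bases 2 to 8, in capitals.
miR-218-5p: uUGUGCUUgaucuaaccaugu
The hairpins had 0 to 3 counts per library, and libraries of polyadenylated RNA do not measure mature microRNAs, so the data hold no level for miR-218.

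The complement of this seed, AAGCACA, was searched in the longest annotated 3′ UTR of each gene (GENCODE M21). It was present in 4 of the 10 guidance genes, compared with 13.7% of 20954 genes and with 32.7% of the 5330 genes whose 3′ UTR has at least 2000 bases. The 10 genes are of mixed length: Slit3, Nrp1, and Robo1, at 365, 549, and 1733 bases, are under 2000, and of these Robo1 has the site. The sites are shown because they fall in Robo1 and Robo2, the receptors of the host genes' products, in Slit2 itself, and in Sema5a. Each line gives 24 bases in the direction of the transcript with the match in capitals, and the coordinates are those of the match.
Slit2, chr5:48304543-48304549, plus strand: cgccaatactagcagAAGCACAtc
Slit2, chr5:48306846-48306852, plus strand: agataattattagcaAAGCACAta
Robo1, chr16:73045348-73045354, plus strand: tttttttggttttaaAAGCACAat
Robo2, chr16:73895359-73895365, minus strand: attttatttggtgatAAGCACAaa
Robo2, chr16:73893033-73893039, minus strand: agtcacggcagacccAAGCACAgc
Sema5a, chr15:32693099-32693105, plus strand: tctgtcagtttgcctAAGCACAgc
The later Slit2 site lies past the end that the deposited table gives for the gene, 48306282. Slit3, with a 3′ UTR of 365 bases, and Sema3a, Sema3c, Ntn1, Nrp1, and Nrp2 had no match. A match of 7 bases is a description of the sequence and does not show that the microRNA acts there.

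The sequences just upstream of Slit2, Robo2, and Nrp2 are shown because these 3 genes had the largest fold increases among the 10 and, of the genes that rose, the closest profiles across libraries (below). Each run is 200 bases, printed 5′ to 3′ on the strand of the gene (sequence from RefSeq, GRCm38.p6). It ends before both a RefSeq start and the GENCODE M21 start of the gene. For Robo2 this is the most downstream RefSeq start. RefSeq promoter windows of Robo2 also lie further upstream, at chr16:75092721-75093020 and chr16:75447244-75447543, and are not printed. Capitals mark matches to GGAAA, the core letters bound by NFAT factors, on either strand, and the TATAAA of Slit2.
Slit2, chr5:47982938-47983137, plus strand: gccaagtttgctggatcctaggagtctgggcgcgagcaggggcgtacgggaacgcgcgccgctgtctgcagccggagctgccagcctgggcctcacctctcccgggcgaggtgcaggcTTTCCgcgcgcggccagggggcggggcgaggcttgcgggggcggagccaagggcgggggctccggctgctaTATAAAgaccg
Robo2, chr16:74411826-74412025, minus strand: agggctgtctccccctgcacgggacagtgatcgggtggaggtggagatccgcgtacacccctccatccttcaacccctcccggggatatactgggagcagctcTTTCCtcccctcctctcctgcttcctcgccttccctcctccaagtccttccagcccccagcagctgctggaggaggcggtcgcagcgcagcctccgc
Nrp2, chr1:62703085-62703284, plus strand: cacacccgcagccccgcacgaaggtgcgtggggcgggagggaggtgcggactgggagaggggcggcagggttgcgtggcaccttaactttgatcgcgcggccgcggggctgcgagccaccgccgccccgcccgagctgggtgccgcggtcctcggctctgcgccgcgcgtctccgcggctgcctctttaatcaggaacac
The runs were rich in G and C, at 72.5% for Slit2, 66.0% for Robo2, and 73.5% for Nrp2. The TATAAA of Slit2 starts 28 bases before its RefSeq start at 47983155, which lies past the end of the printed run because GENCODE M21 starts the gene earlier.

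RefSeq promoter windows, from 250 bases before to 50 bases after a start, were found for 9 of the 10 genes (11 windows, Ntn1 not among them), and their median GC content was 65.0%, compared with 52.7% over 32851 windows of all genes. Motifs were searched on both strands, and GGAAA and GGAATG share the letters GGAA. GGAAA occurred in windows of Slit2, Robo1, Robo2, Sema3a, and Nrp1 and in 61.3% of all windows. TGANTCA, the AP-1 motif, occurred in none of the 11 windows and in 7.81% of all. GGAATG, the TEAD motif, occurred in 1 upstream window of Robo2 and in 14.7% of all, TATAAA in Slit2 alone and in 13.6% of all, and CAGACA, the SMAD motif, in Slit2, Slit3, Robo1, and Nrp1 and in 21.0% of all.

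The counts summed to between 49921946 and 68260600 per library, so that 3 counts correspond to 0.0409 to 0.0604 CPM (counts divided by a TMM-adjusted library size), and no pair of libraries of a group was a duplicate. All 8 fibroblast identity markers were detected, and their summed level was 24781 to 30539 CPM in aged sham, against 54946 to 72365 CPM in aged bleo, with 4 markers called higher and 1 lower. Most of this sum came from Col1a1, Col1a2, and Col3a1, at 4150, 5458, and 7902 CPM on average in aged sham and 20833, 16456, and 23879 CPM in aged bleo. Pdgfrb was also higher, Dcn was lower (8114 and 2792 CPM), and Pdgfra, Lum, and Thy1 were not called. Summed macrophage markers were 131 to 248 CPM in aged sham, against 436 to 1383 CPM in aged bleo (4 of 7 called higher), and pan-leukocyte markers 99.5 to 376 CPM and 105 to 576 CPM (1 of 6 called higher), each highest in aged sham 4 and aged bleo 4 of their groups. Endothelial markers summed to 165 to 203 CPM and 27.5 to 72.5 CPM (1 of 7 tested called higher, Kdr, and 1 lower, Tek, which alone had 161 and 28.8 CPM on average), lymphatic endothelial markers to 5.06 to 11.1 CPM and 4.56 to 11.3 CPM (0 of 4 called), and neuronal markers to 1.73 to 2.81 CPM and 3.53 to 6.35 CPM (1 tested, called higher). Epithelial markers summed to 11.3 to 95.7 CPM and 19.0 to 62.3 CPM (1 of 8 called higher, Krt8), and mesothelial markers to 28.6 to 83.9 CPM and 35.3 to 125 CPM (0 of 6 called). Schwann cell markers summed to 38.2 to 58.2 CPM and 15.7 to 30.3 CPM. Of the 4 tested, 1 was called lower, Mbp, which alone had 38.5 and 18.9 CPM on average. Smooth muscle and pericyte markers summed to 2678 to 5329 CPM and 1877 to 3059 CPM (1 of 8 called higher and 3 lower), and neutrophil markers to 170 to 934 CPM and 80.5 to 765 CPM (0 of 7 called). No marker was at 0 in every library, and the part of these other cells in the results below was not tested.

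The guidance genes went both ways after bleomycin. With edgeR's quasi-likelihood test at an FDR (Benjamini-Hochberg adjusted p) under 0.10 and a fold change over 1.5, Slit2, Robo2, Nrp2, Sema5a, and Sema3a were higher in aged bleo, and Sema3c, Ntn1, and Slit3 were lower. These are 5 genes higher, where 12.3% of the 16877 tested genes were called higher, and 3 lower, where 11.5% were called lower. Nrp1 passed the FDR but not the fold change, and Robo1 passed neither, so that 9 of the 10 genes were under the FDR threshold at any fold change, as were 44.8% of all tested genes. In 5 genes every aged bleo library was above every aged sham library (16.1% of all tested genes), and in 3 every aged bleo library was below (16.1%), which makes 8 genes without overlap (32.2% of all tested genes). The median log2 fold change of the 10 genes was 0.59, and that of all tested genes was 0.01. This median lies between genes that went both ways and is not a net rise. The summed level of the 10 genes was 2488 to 2676 CPM in aged sham and 1609 to 2524 CPM in aged bleo. In bulk RNA of sorted cells, fewer cells of a type and less RNA per cell cannot be told apart.

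**Figure D1:**
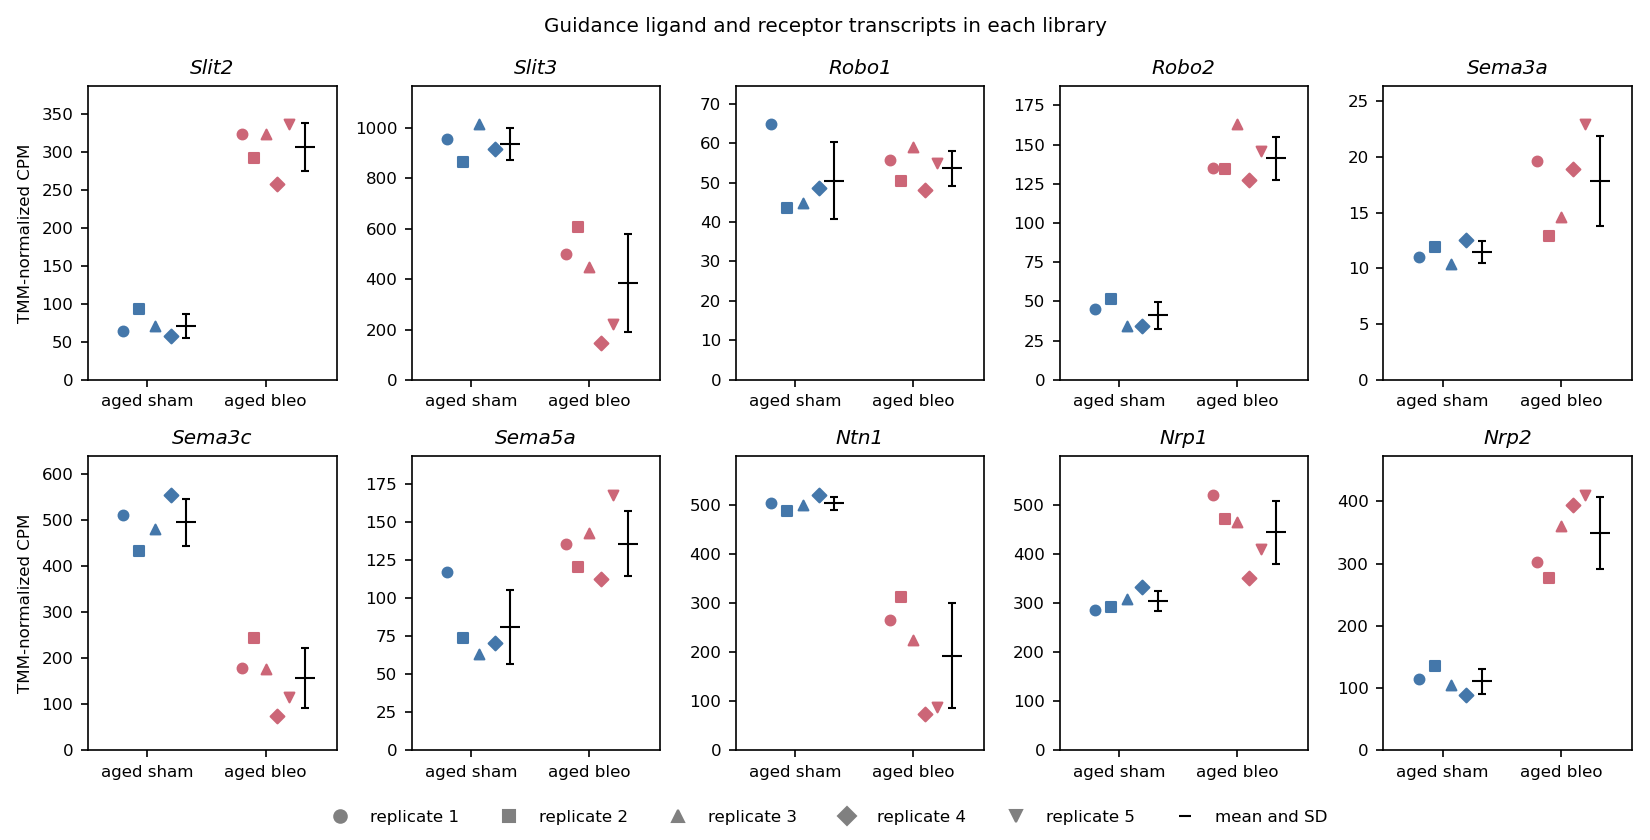
TMM-normalized CPM (vertical axes, from 0, a scale for each gene) of the 10 guidance genes in 4 aged sham (blue) and 5 aged bleo (red) libraries, with the marker shape giving the replicate number and the bar the mean and SD. Slit2, Robo2, and Nrp2 sit higher in every aged bleo library, Slit3, Sema3c, and Ntn1 lower with a wide spread in aged bleo, and Robo1 overlaps.

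The Slit ligands moved in opposite directions. Slit2 (ENSMUSG00000031558, chr5:47983155-48306282) had 64.3, 93.9, 70.5, and 57.3 CPM in aged sham 1 to 4 and 324, 292, 324, 259, and 337 CPM in aged bleo 1 to 5. The lowest aged bleo library was thus far above the highest aged sham library, and the aged bleo libraries were close to each other. Slit2 rose 4.30-fold, a log2 fold change of 2.10 ± 0.16 (SE, n = 4 and 5, edgeR FDR = 3.79e-05), from a mean of 71.5 ± 15.9 to 307 ± 31.8 CPM (SD). Slit3 (ENSMUSG00000056427, chr11:35121224-35708507) had 956, 863, 1014, and 916 CPM in aged sham, against 500, 608, 447, 147, and 222 CPM in aged bleo. The groups did not overlap, and aged bleo 4 and 5 were well below the other aged bleo libraries. Slit3 fell 2.44-fold, by 1.28 ± 0.37 on the log2 scale (edgeR FDR = 0.0240).

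The Robo receptors differed from each other as well. Robo2 (ENSMUSG00000052516, chr16:73892306-74411825) had 45.3, 51.6, 34.1, and 34.1 CPM in aged sham, against 135, 134, 163, 128, and 146 CPM in aged bleo. Every aged bleo library was above the aged sham maximum by a wide margin, and Robo2 rose 3.42-fold (log2 fold change 1.77 ± 0.14, edgeR FDR = 6.45e-05). Robo1 (ENSMUSG00000022883, chr16:72663149-73046095), its neighbour on chromosome 16, had 64.7, 43.7, 44.7, and 48.5 CPM in aged sham, against 55.7, 50.5, 59.0, 48.0, and 54.9 CPM in aged bleo. Here the highest library of all was aged sham 1, the groups overlapped, and the log2 fold change of 0.09 ± 0.12 was within its error (edgeR FDR = 0.604). Robo1 and Robo2 both hold the miR-218 seed match shown above, at 1 site in Robo1 and 2 in Robo2.

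Of the semaphorins, Sema3c fell while Sema3a and Sema5a rose. Sema3c (ENSMUSG00000028780, chr5:17574281-17730268), a secreted ligand that can use both neuropilins, had 513, 433, 481, and 555 CPM in aged sham, against 180, 244, 177, 75.1, and 115 CPM in aged bleo. No libraries of the groups overlapped, with aged bleo 4 the lowest, and Sema3c fell 3.13-fold, by 1.65 ± 0.29 on the log2 scale (edgeR FDR = 0.00338). Sema3a (ENSMUSG00000028883, chr5:13396784-13602565), the classic ligand of neuropilin-1, had 11.0, 11.9, 10.4, and 12.5 CPM in aged sham, against 19.6, 12.9, 14.6, 18.9, and 22.9 CPM in aged bleo. Its groups only just missed each other, at 12.5 and 12.9 CPM. The log2 fold change of 0.63 ± 0.16 (1.55-fold, edgeR FDR = 0.0169) was close to the threshold of 0.58, and without aged bleo 5 it was 0.53 and no longer called.

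Sema5a (ENSMUSG00000022231, chr15:32244813-32696341) is a membrane-bound semaphorin with thrombospondin repeats. It had 117, 73.7, 63.4, and 70.6 CPM in aged sham, against 135, 121, 143, 112, and 168 CPM in aged bleo. Aged sham 1 was above aged bleo 4, so the groups overlapped by this pair, whereas the other aged sham libraries were below all aged bleo libraries. Sema5a rose 1.67-fold (log2 fold change 0.74 ± 0.19, edgeR FDR = 0.0165).

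Ntn1 (ENSMUSG00000020902, chr11:68209364-68400823), which encodes netrin-1, had 504, 487, 500, and 521 CPM in aged sham, against 265, 313, 225, 74.4, and 88.7 CPM in aged bleo. The aged sham libraries were nearly equal, whereas the aged bleo libraries spread over a 4.21-fold range and all lay below them. Ntn1 fell 2.60-fold, by 1.38 ± 0.40 on the log2 scale (edgeR FDR = 0.0256).

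Both neuropilins were higher in every aged bleo library, with a larger change in Nrp2. Nrp2 (ENSMUSG00000025969, chr1:62703285-62818695), which binds class 3 semaphorins and VEGF-C, had 115, 136, 105, and 88.5 CPM in aged sham, against 303, 277, 360, 394, and 410 CPM in aged bleo. It rose 3.14-fold (log2 fold change 1.65 ± 0.16, edgeR FDR = 1.68e-04), and its highest values were in aged bleo 5 and 4. Nrp1 (ENSMUSG00000025810, chr8:128359073-128505462), which binds class 3 semaphorins and VEGF-A, had 286, 293, 309, and 333 CPM in aged sham, against 522, 472, 467, 353, and 411 CPM in aged bleo. Its lowest aged bleo library was aged bleo 4, only slightly above aged sham 4. The log2 fold change of Nrp1 was 0.54 ± 0.12 (1.46-fold, edgeR FDR = 0.00866), which is under the 1.5-fold threshold, and it was 0.59 without aged sham 4 and 0.61 without aged bleo 4, both past the threshold. Endothelial cells are known for both neuropilins. Of their 7 tested markers, Kdr was called higher (3.25 and 4.97 CPM on average), Tek was called lower, and Pecam1, Cdh5, Tie1, Cldn5, and Vwf were not called, at 6.89 CPM or less on average in either group. None of the 4 lymphatic markers was called. The summed macrophage markers were higher in every aged bleo library. The aged bleo libraries ran 5, 4, 3, 1, 2 from high to low for Nrp2 and 4, 5, 2, 3, 1 for the macrophage markers, whose part in the neuropilin values was not tested.

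The 3 genes that fell followed one order across the aged bleo libraries. Slit3, Ntn1, and Sema3c each ran 2, 1, 3, 5, 4 from high to low, and so did the summed level of 7 adventitial fibroblast markers (Pi16, Dpp4, Cd34, Ly6a, Dpt, Col14a1, Ebf2). All 7 of these markers were called lower, and their sum went from 9731 to 11248 CPM in aged sham to 6034 CPM in aged bleo 2 and 1557 CPM in aged bleo 4. The highest aged bleo library exceeded the lowest 4.13-fold for Slit3, 4.21-fold for Ntn1, and 3.25-fold for Sema3c, compared with 1.18-fold, 1.07-fold, and 1.28-fold among aged sham libraries. Alveolar fibroblast markers summed to 2822 to 4505 CPM in aged sham, against 1040 to 3048 CPM in aged bleo, with 1 of 7 called higher and 3 lower. The alveolar sum ran 2, 3, 1, 5, 4 from high to low, which differs only in the places of aged bleo 1 and 3. The near-shared order was thus not particular to the adventitial markers. The order of Slit3, Ntn1, and Sema3c, reversed, held along the first principal component of all tested genes. There aged bleo 2 scored 5.18 and aged bleo 4 scored 88.7. Whether fewer adventitial or alveolar fibroblasts in the gate account for the lower Slit3, Ntn1, and Sema3c was not tested.

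**Figure D2:**
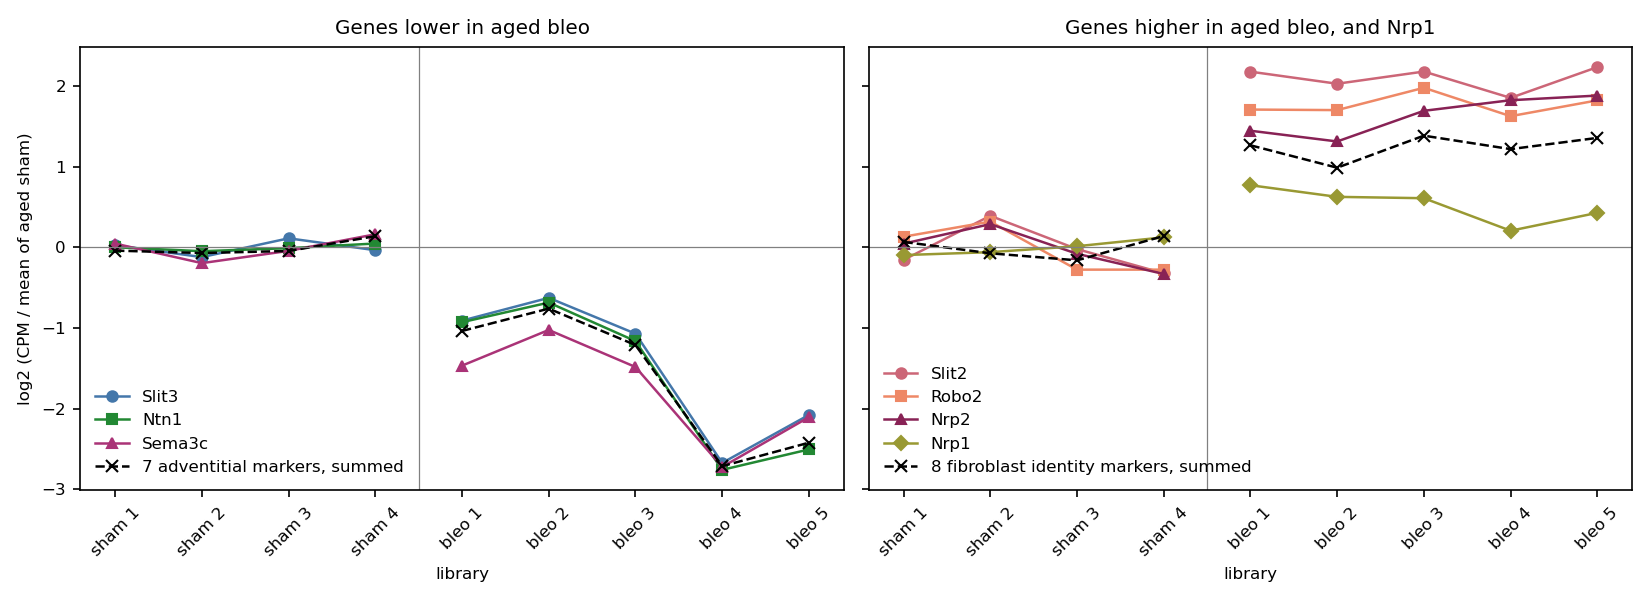
log2 of CPM over the aged sham mean (vertical axis) in each library (horizontal axis, lines join libraries of a group and carry no order). On the left, Slit3, Ntn1, and Sema3c run with the 7 summed adventitial markers (dashed) and are lowest in aged bleo 4, and on the right Slit2, Robo2, Nrp2, and Nrp1 are drawn with the 8 summed fibroblast identity markers (dashed). Most of the fibroblast identity sum is Col1a1, Col1a2, and Col3a1.

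The genes that rose did not all share 1 order. Slit2 and Sema5a ran 5, 3, 1, 2, 4, and Robo2 ran 3, 5, 1, 2, 4, which differs only in the places of aged bleo 3 and 5. Sema3a ran 5, 1, 4, 3, 2 and Nrp2 ran 5, 4, 3, 1, 2. Nrp1, under the fold change threshold, ran 1, 2, 3, 5, 4. This differs from the order of Slit3, Ntn1, and Sema3c only in the places of aged bleo 1 and 2. The spread of Slit2 and Robo2 among aged bleo libraries was small, with the highest 1.30-fold and 1.28-fold above the lowest. The coefficient of variation of Slit2 was 22.2% in aged sham and 10.3% in aged bleo, and that of Slit3 was 6.82% and 50.3%. For 4 of the 5 genes that rose (all but Sema3a), the aged sham libraries varied more than the aged bleo libraries relative to their mean, and for the 3 that fell they varied less. Among the 10 genes, the closest profiles of log2 CPM over the 9 libraries, each centred on its mean, were those of Slit3 and Ntn1 (root-mean-square difference 0.14), Robo2 and Nrp2 (0.20), Slit2 and Robo2 (0.22), and Slit3 and Sema3c (0.23).

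Levels of different genes were compared as FPKM, which is scaled to gene length. In aged sham, Slit3 was highest at 64.9 ± 4.63 FPKM (SD, n = 4), followed by Ntn1 at 33.6 ± 0.41, Sema3c at 29.1 ± 2.56, and Nrp1 at 21.7 ± 1.24, and none of these 4 overlapped with the next. Nrp2 (3.95 FPKM), Sema5a (3.15), Robo1 (2.80), and Slit2 (1.99) formed a lower group in which neighbours overlapped, and Robo2 (1.05) and Sema3a (0.74) were lowest. Within the 10 genes, the 3 that fell were thus the 3 with the highest FPKM in the sorted cells of aged sham mice.

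In aged bleo, Nrp1 was first at 32.4 ± 4.22 FPKM (n = 5), followed by Slit3 at 27.1 ± 13.2, Ntn1 at 13.1 ± 7.09, Nrp2 at 12.7 ± 2.32, Sema3c at 9.47 ± 3.72, and Slit2 at 8.76 ± 0.82, and each of the first 5 overlapped with its neighbour. Below them, Sema5a (5.41 FPKM), Robo2 (3.68), Robo1 (3.05), and Sema3a (1.19) did not overlap with the next. Slit3 made up 39.8% of the summed FPKM of the 10 genes in aged sham and 23.2% in aged bleo, while Slit2 went from 1.22% to 7.50% and Nrp1 from 13.3% to 27.7%.

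Within pairs of related genes the balance therefore differed between the groups. Slit2 made up 3.00% ± 0.80 (SD, n = 4) of the Slit2 and Slit3 FPKM in aged sham and 27.8% ± 11.2 (n = 5) in aged bleo. In single libraries it was between 2.45% and 4.19% in aged sham and 20.7%, 16.2%, 22.6%, 41.4%, and 37.9% in aged bleo 1 to 5, so that Slit3 remained the larger part in every library. Robo1 made up 72.6% ± 5.19 of the Robo1 and Robo2 FPKM in aged sham and 45.4% ± 1.2 in aged bleo, where it was between 44.2% and 47.4% in all 5 libraries. Robo2 was therefore the smaller part in every aged sham library and the larger part in every aged bleo library.

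Sema3a went from 2.51% ± 0.30 to 12.9% ± 6.79 of the Sema3a and Sema3c FPKM, and Nrp1 from 84.6% ± 3.03 to 71.6% ± 6.06 of the Nrp1 and Nrp2 FPKM. The groups did not overlap in any of the 4 pairs. These shares follow from the levels already tested and were not tested again.

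**Figure D3:**
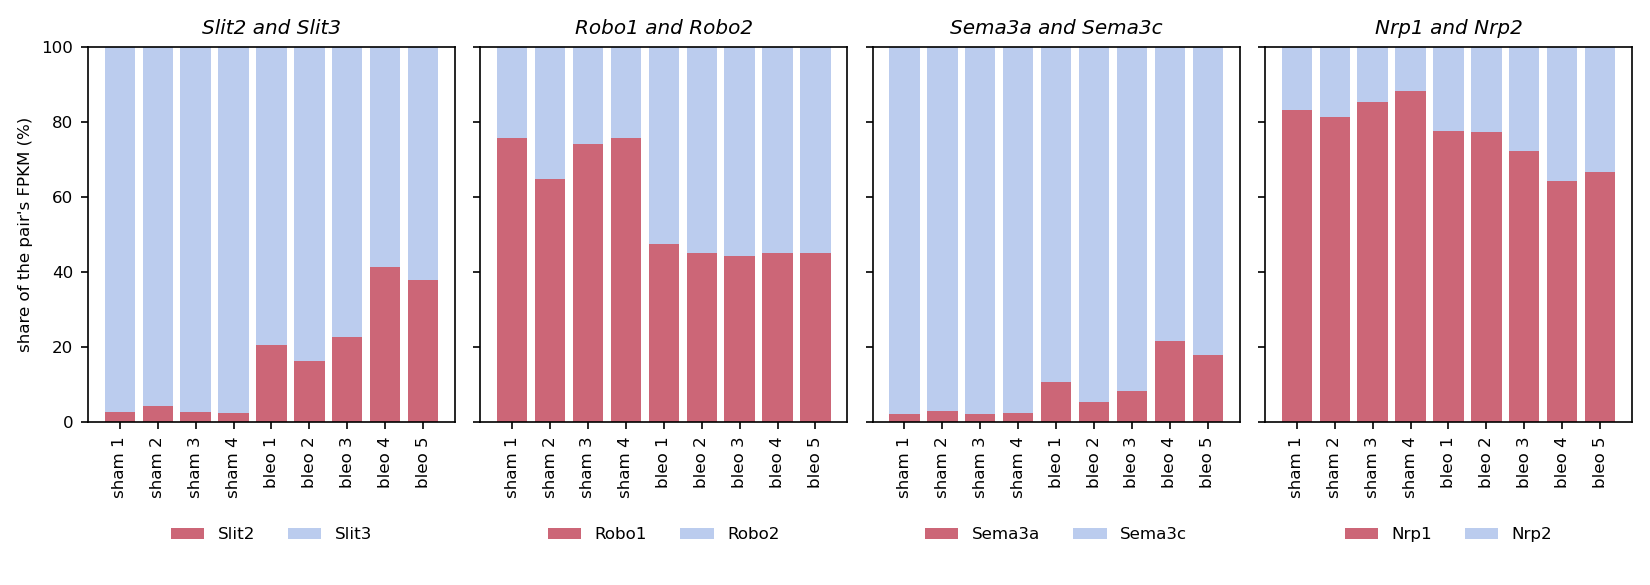
Share of the summed FPKM of a pair of related genes (vertical axis, percent) in each library (horizontal axis), with the first gene of the pair in red and the second in pale blue. The share of Slit2 is at most 4.19% in aged sham, Robo1 and Robo2 change places as the larger part, and Nrp1 remains the larger part of its pair.

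The other genes of the pathways were taken as a list of 57 ligands, receptors, and intracellular effectors, of which 50 passed the count filter. Of these 50, 13 were called higher and 8 lower, with a median log2 fold change of -0.08 (12.3% and 11.5% of all tested genes were called higher and lower). Receptors that passed both thresholds all went up: 5 of 13 tested were higher and 0 lower. Past the FDR but not the fold change, Plxna3 was lower (-0.34 ± 0.13, edgeR FDR = 0.0644), and Plxna1, Plxnb1, Plxnb2, and Unc5c were higher. Ligands went both ways, with 8 of 25 tested higher and 7 lower, and of the 12 effectors 0 were called higher and 1 lower, the collapsin response mediator Dpysl4 (-1.56 ± 0.40, edgeR FDR = 0.0164).

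**Figure D4:**
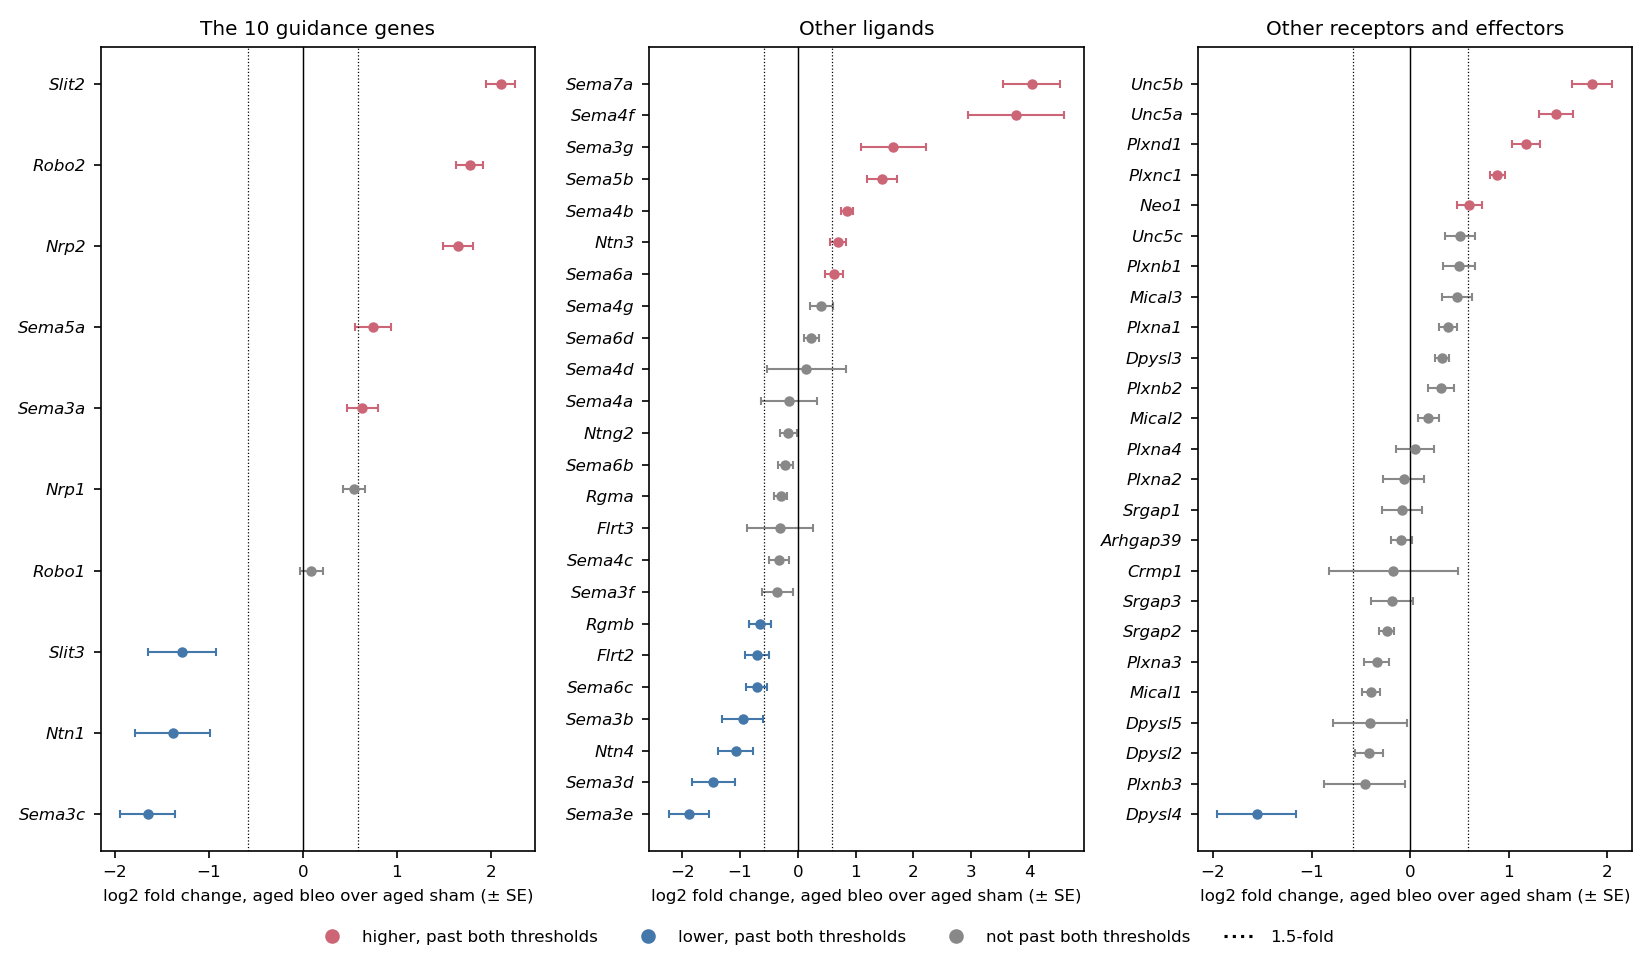
log2 fold change of aged bleo over aged sham (horizontal axes, scales differ between panels) with its SE for the 10 guidance genes, the other ligands, and the other receptors and effectors that were tested. Red and blue points passed both thresholds, grey points did not, dotted lines mark 1.5-fold, and Ntn5, with at most 2 counts in aged sham, is not drawn.

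Of the other Slit and Robo genes, Slit1 and the endothelial receptor Robo4 were near the limit of detection, at 0.19 ± 0.03 and 0.24 ± 0.10 CPM in aged sham, against 0.23 ± 0.11 and 0.18 ± 0.06 CPM in aged bleo, and were not tested. Srgap1, which encodes a Slit-Robo GTPase-activating protein, had 24.5 ± 3.51 and 23.1 ± 6.16 CPM, a log2 fold change of -0.09 ± 0.20 (edgeR FDR = 0.773). Robo3 had at most 10 counts in a library, so that nearly all Slit and Robo transcript in these cells was that of Slit2, Slit3, Robo1, and Robo2.

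Of the plexins, which carry semaphorin signals, Plxnd1 and Plxnc1 rose. Plxnd1, a receptor for Sema3e and, with neuropilins, for Sema3c, had 75.0 to 112 CPM in aged sham, against 176 to 236 CPM in aged bleo (log2 fold change 1.18 ± 0.14, edgeR FDR = 5.40e-04). Plxnc1, the receptor of Sema7a, had 30.3 to 36.7 CPM and 56.9 to 66.5 CPM (0.88 ± 0.08, edgeR FDR = 9.07e-05). Plxna1 was 125 ± 13.8 and 163 ± 12.9 CPM (0.38 ± 0.09, edgeR FDR = 0.0141), past the FDR but not the fold change. Plxna2 and Plxna4, with log2 fold changes of -0.07 ± 0.21 and 0.05 ± 0.19, were within error. Plxnb3, a receptor of Sema5a, was low at 0.54 ± 0.02 and 0.39 ± 0.23 CPM (-0.46 ± 0.41, edgeR FDR = 0.413).

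Among netrin receptors, Unc5b had the largest change. It had 23.4 to 41.6 CPM in aged sham, against 77.4 to 124 CPM in aged bleo (1.85 ± 0.20, edgeR FDR = 2.94e-04), and its groups did not overlap. Neo1, which encodes neogenin, had 160 to 205 and 216 to 318 CPM (0.60 ± 0.12, edgeR FDR = 0.00643), and its fold change of 1.52 fell under the threshold without aged sham 3, aged sham 4, or aged bleo 3. Unc5c had a log2 fold change of 0.50 ± 0.15 (edgeR FDR = 0.0318) and passed the fold change only without aged sham 1, at 0.64. Dcc had 0 to 4 counts per library and was not tested. The ligand Ntn1 and its receptors Unc5b and Neo1 therefore went in opposite directions.

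The other ligands with the largest changes were mostly semaphorins. Sema7a, a membrane-anchored semaphorin, rose from 1.94 to 5.80 CPM in aged sham to 24.0 to 86.5 CPM in aged bleo (4.04 ± 0.49, edgeR FDR = 4.95e-04). Sema4f rose from 0.19 to 0.60 CPM to 1.12 to 13.3 CPM (3.77 ± 0.83, edgeR FDR = 0.00859), with a wide spread in aged bleo, and its log2 fold change was 3.08 without aged bleo 4. Sema3g rose from 0.20 to 1.5 CPM to 1.31 to 3.19 CPM (1.65 ± 0.56, edgeR FDR = 0.0451), but its groups overlapped, and it was not called without aged sham 1 (FDR = 0.109) or without aged sham 4 (FDR = 0.110). Its log2 fold change was 2.58 without aged sham 3, the aged sham library with the most Sema3g. Ntn5, named after its values were seen, had 0 to 2 counts in aged sham and 37 to 131 counts in aged bleo, and no fold change is given because aged sham is under 3 counts.

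The ligands that fell most were Sema3e, Sema3d, and Ntn4. Sema3e, the ligand of plexin D1, had 21.8 to 30.6 CPM in aged sham, against 3.19 to 14.0 CPM in aged bleo (-1.88 ± 0.35, edgeR FDR = 0.00437), while its receptor Plxnd1 rose. Sema3d had 382 to 459 and 54.0 to 251 CPM (-1.46 ± 0.37, edgeR FDR = 0.0159), levels and a decrease close to those of Sema3c. Ntn4, a netrin of basement membranes, had 135 to 163 and 32.4 to 108 CPM (-1.07 ± 0.31, edgeR FDR = 0.0245).

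The gene outside the 10 whose profile over the 9 libraries was closest to each of them was named by the same distance. For Slit2 it was Spon1, which encodes the secreted protein F-spondin, at 0.12, with a level of 168 ± 35.9 CPM in aged sham, against 666 ± 53.1 CPM in aged bleo. For Slit3 it was Galnt16 (0.09), at 144 ± 14.5 and 53.9 ± 25.7 CPM. For Sema3c it was Man1a (0.08), at 440 ± 40.7 and 149 ± 60.4 CPM, and for Ntn1 it was 3632451O06Rik (0.08), at 44.0 ± 2.63 and 15.8 ± 8.81 CPM. The closest genes to the others were Helz for Robo1 (0.07), Palm2 for Robo2 (0.17), Macrod2 for Sema3a (0.12), Tanc1 for Sema5a (0.12), Pcdhb22 for Nrp1 (0.09), and Nat8 for Nrp2 (0.11). For comparison, the median distance of all other tested genes was 1.10 for Slit2, 0.96 for Slit3, and 0.32 for Robo1, whose profile is nearly flat, so that a small distance is less particular for Robo1 than for the Slits. The nearest genes were picked as the smallest of all distances, which is a description only.

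Overlapping rows of neighbouring genes were read for their own counts. Reads of neighbouring transcripts that were counted to one of the 10 genes would not show there, and their part was not tested. Rows that overlap one of the 10 genes in the table held at most 0.42% of its mean count, reached by Mir1903 within Nrp1, and 0.30% in Nrp2, and the rows within Slit2 and Slit3 held at most 0.03% and 0.01%.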

How the data were processed

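The data were 9 RNA-Seq libraries of sorted lung fibroblasts, 4 of aged sham and 5 of aged bleo. The authors deposited 1 table with read counts per gene (whole numbers, not normalized) and with FPKM values, in which the authors adjusted for gene length and library size. Per the labels, reads were processed with STAR 2.5.2b and counted with featureCounts on mm10 (GRCm38), and no strand setting was given. Every column of values was mapped to a library.

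Genes averaging 25 counts or more were tested with edgeR 4.0.16 in R 4.3.3 (TMM, glmQLFit, glmQLFTest, no covariate), and called at FDR under 0.10 and fold change over 1.5. The SE was derived from the fold change and its F statistic, and log2 CPM used a prior count of 2. Depth ranged from 49921946 to 68260600 counts, and limits from counts cover counting error only. P-values weigh the difference between the groups against the spread between libraries of a group. Tests were tried on simulated counts.

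The 10 genes, the pathway list, and the marker lists were chosen with earlier results of these data known. Besides the 10 genes, named pathway genes were 12 relatives or partners of the 10 genes and the 4 with the largest change in each direction among those called with a mean of at least 1 CPM, and for each of the 10 the closest profile. Plxna3, Plxnb1, Plxnb2, Plxnc1, Robo3, and Ntn5 were named after their values were seen. Where the table has more than 1 row of a symbol, as for Mical3, the first was used.

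As alternatives, DESeq2 1.42.0 and limma 3.58.1 were run, the latter on log2 CPM (limma-trend), log2(FPKM + 0.1), and log2(FPKM + 1). In edgeR, RLE or plain library sizes replaced TMM, the count filter was removed or set to 10 counts in each library, the fit was made robust, and thresholds were tightened to FDR under 0.05 with fold change over 2. Each library was left out in turn, and the replicate number was used as a block. Leaving out aged sham 4 with aged bleo 4 was added after seeing the data. Promoter and microRNA sequences came from RefSeq (GRCm38.p6) and 3′ UTRs from GENCODE M21.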

Additional observations from a re-analysis of the deposited data

Results flagged for a closer look

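Of 66 groups of library values examined for the 10 guidance genes, their shares within pairs, and the named pathway genes, 6 had 1 library far from the others of its group (Dixon's criterion at 95%), where chance alone gives about 1 in 20. All 6 were in aged sham. Aged sham 2 had the highest share of Slit2 in the Slit pair, 4.19% against 2.72% in the next library, and the lowest share of Robo1 in the Robo pair, 64.9% against 74.1%. Both shares remained outside the range of aged bleo. Aged sham 1 was highest for Unc5b, at 41.6 CPM against 25.5 CPM, and lowest for Sema3e, at 21.8 CPM against 29.1 CPM. Aged sham 3 had 1.5 CPM of Sema3g against 0.42 CPM in the next library, and aged sham 4 had 0.38 CPM of Robo4 against 0.21 CPM.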

How the results depend on the processing

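Slit2, Slit3, Robo2, Sema3c, Ntn1, and Nrp2 kept their direction and their call under every alternative, and Robo1 was called under none. With limma on log2(FPKM + 1), 960 genes were higher and 825 lower, and of the other pathway genes 5 and 5, with Sema4f (0.44), Sema3g (0.16), and Dpysl4 (-0.13) no longer called on that scale. At an FDR under 0.05 with a fold change over 2, 1224 genes were higher and 934 lower, 3 of the 10 guidance genes were higher, with Sema3a (0.63) and Sema5a (0.74) no longer called, and 8 other pathway genes were higher and 4 lower. Sema3a also lost its call with limma at 0.58 on log2(FPKM + 0.1) and 0.32 on log2(FPKM + 1). Leaving out 1 library each gave 4 to 6 of the 10 genes higher and 3 lower, 1876 to 2314 genes higher and 1639 to 2283 lower, and 11 to 14 other pathway genes higher and 6 to 9 lower, and log2 fold changes of 0.53 to 0.73 for Sema3a and 0.48 to 0.61 for Nrp1. Without aged sham 4 and aged bleo 4, Nrp1 was called at 0.64. Values within error changed sign for Plxna2 (0.096 without aged sham 1, 0.040 without aged bleo 4, range -0.17 to 0.096), Plxna4 (-0.017 without aged sham 4, -0.075 without aged bleo 3, range -0.075 to 0.18), and Srgap1 (0.041 without aged bleo 4, range -0.18 to 0.041, and 0.079 without aged sham 4 and aged bleo 4). Of 334 such values for the named pathway genes, 317 kept direction and call. The cause of these changes was not tested.

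With the replicate number as a block, 1822 genes were higher and 1714 lower, and Sema3a was not called (0.51). Deviations of libraries with the same number correlated at 0.09, 0.06, -0.13, and 0.33. Of the 4 aged sham libraries, 1 (aged sham 4) correlated best with its own number. Whether the numbers pair the libraries is not known, and these correlations cannot decide it.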
